A study of Mus musculus with 6 samples.

Results

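BMP signalling genes, 10 in number, were followed in chromatin of mouse primordial germ cell-like cells (PGCLCs), cultured cells that resemble the embryonic founders of eggs and sperm. They were chosen by their place in the pathway, out of 21853 protein-coding genes on the assembled chromosomes. Earlier results of these data were known when the choice was made, so shares among the 10 genes are descriptions only. The members were the ligand Bmp4, the receptors Bmpr1a and Bmpr2, the signal transducers Smad1, Smad4 and Smad5, and the target genes Id1, Id2, Id3 and Msx2. For each gene, all intervals within 1 kb of a transcription start site (TSS) and in the gene plus 10 kb on either side were read. Chromatin immunoprecipitation and sequencing (ChIP-seq) had been done on untreated PGCLCs of strain 129Sv/J at day 2, in which the Tex10 protein is fused at its C terminus to an HA tag. The series has 2 samples with an antibody to the tag (HA-Tex10), 2 with an antibody to H3K4me3 (histone H3 trimethylated at lysine 4) and 2 of input DNA. One interval list per antibody was used here, 4331 intervals for HA-Tex10 and 29072 for H3K4me3. The lists have no replicate values, no peak heights and no depths, so the values below carry no replicate error and no test between samples was possible.

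Bone morphogenetic proteins (BMPs) bind pairs of type I and type II receptor kinases, which phosphorylate SMAD1 and SMAD5. These join SMAD4, enter the nucleus and switch on target genes such as the Id genes and Msx2. BMP4 is the signal that turns epiblast cells, and epiblast-like cells in culture, towards the germ line. H3K4me3 is a histone mark found around the start sites of active or poised genes, and a gene that carries it is not thereby shown to be transcribed.

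H3K4me3 lay within 1 kb of a TSS at all 10 genes, where 60.9% of coding genes had such an interval. HA-Tex10 lay within 1 kb of a TSS at 1 of the 10, Id1. The same held for 8.66% of all coding genes and for 13.9% of those with H3K4me3, so the share of the 10 genes was near the background. In the gene plus 10 kb, HA-Tex10 was found at 2 genes, Id1 and Msx2, where 16.9% of all coding genes and 23.9% of those with H3K4me3 had an interval. H3K4me3 lay in the gene plus 10 kb at all 10, next to 70.7% of coding genes. The 10 genes held 27 H3K4me3 intervals and 2 HA-Tex10 intervals in all. The map of intervals along each gene shows their positions.

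**Figure D1:**
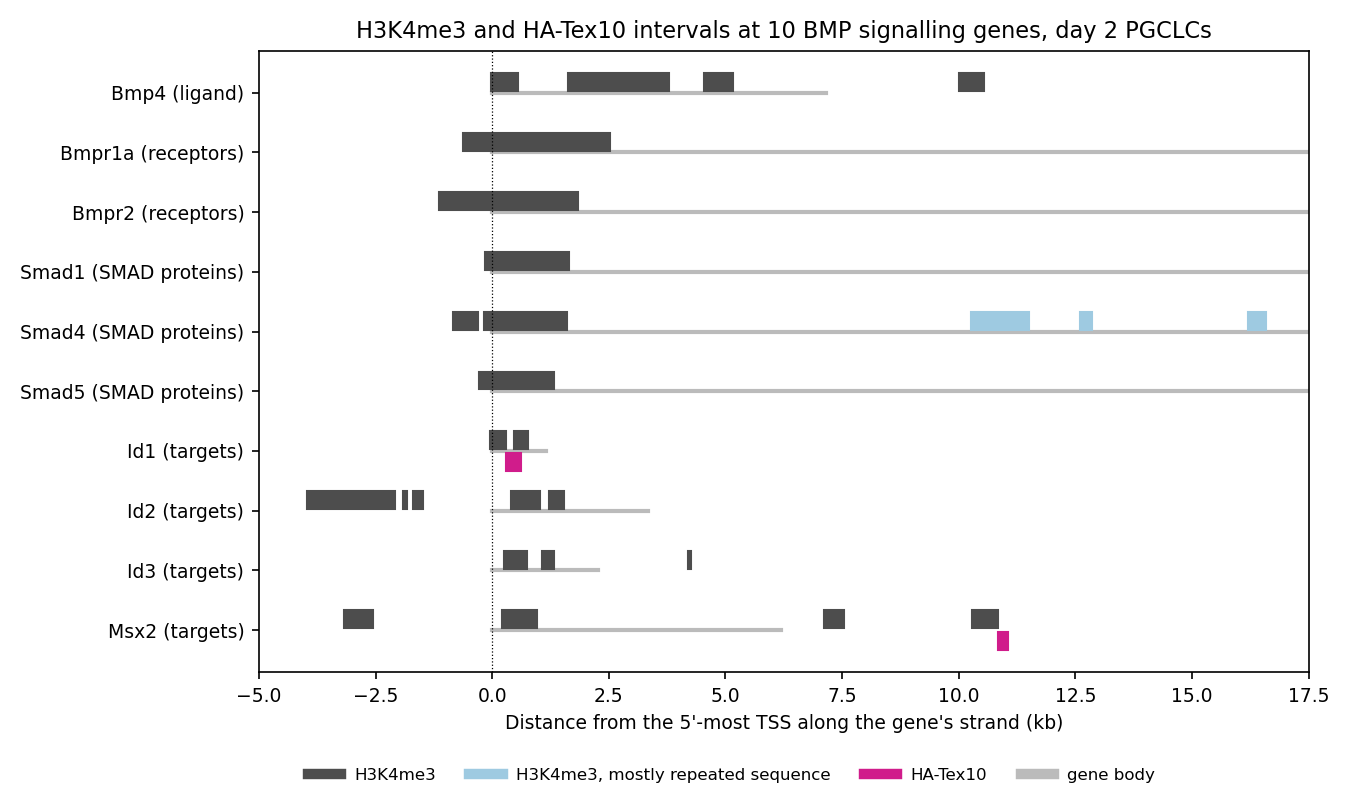
Positions of H3K4me3 and HA-Tex10 intervals at the 10 genes, in kb from the 5'-most coding TSS along the gene's strand (x axis), with 1 gene per line. The receptor, Smad1 and Smad5 lines hold 1 H3K4me3 block over the start, the ligand and target lines hold 2 to 5 blocks, of which those within 1 kb of a TSS are 745 bp or less while Bmp4 has one of 2173 bp and Id2 one of 1896 bp farther off, and HA-Tex10 appears at Id1 and beyond the end of Msx2.

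The sequences under both HA-Tex10 intervals are shown first, since they are the only HA-Tex10 intervals called in these genes plus 10 kb. They were read from the GRCm38 reference, 5′ to 3′ on the strand of the gene. At Id1, the 294 bases at chr2:152736551-152736844 are given, all of them coding in one of its 2 transcripts, and the last 23 bases of the interval are left out. Capitals mark the 172 bases that lie between the 2 H3K4me3 intervals of the gene. At Msx2, capitals mark the 13 bases at chr13:53462229-53462241 that are shared with an H3K4me3 interval.
Id1 HA-Tex10 interval: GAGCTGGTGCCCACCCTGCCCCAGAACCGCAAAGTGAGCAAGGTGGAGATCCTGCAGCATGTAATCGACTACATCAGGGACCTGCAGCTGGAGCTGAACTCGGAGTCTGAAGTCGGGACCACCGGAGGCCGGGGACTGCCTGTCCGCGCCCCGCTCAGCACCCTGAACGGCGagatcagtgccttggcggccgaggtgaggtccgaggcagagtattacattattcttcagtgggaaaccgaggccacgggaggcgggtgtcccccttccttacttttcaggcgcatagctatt
Msx2 HA-Tex10 interval: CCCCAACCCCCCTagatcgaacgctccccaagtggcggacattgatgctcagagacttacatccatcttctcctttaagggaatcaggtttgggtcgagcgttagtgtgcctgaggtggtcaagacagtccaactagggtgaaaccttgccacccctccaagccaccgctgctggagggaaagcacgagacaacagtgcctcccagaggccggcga

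Id1 (ENSMUSG00000042745.9) encodes a helix-loop-helix protein that binds and blocks basic helix-loop-helix transcription factors. It is a short gene of 1160 bp on the plus strand of chromosome 2, from 152736251 to 152737410. Its HA-Tex10 interval ran from 152736551 to 152736867 and was 317 bp wide, wider than the median of 234 bp in its list (percentile 73.7). It began 300 bp downstream of the only TSS. In the transcript that keeps the intron, 294 of its bases were coding and 23 were in the 3′ UTR. In the spliced transcript the interval ran from the first exon into the intron.

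H3K4me3 at Id1 came as 2 short intervals, of 337 bp from 152736201 to 152736537 and of 301 bp from 152736723 to 152737023. The first contained the TSS and the second began 472 bp downstream of it. A gap of 185 bp separated them, and 172 bp of the HA-Tex10 interval lay in this gap, while 145 bp lay on the second H3K4me3 interval. The centre of the HA-Tex10 interval, 458 bp from the TSS, was thus in the gap. Among the 1773 HA-Tex10 intervals at a coding TSS, 50 (2.82%) were centred in a gap of at most 1 kb between H3K4me3 intervals, and 1491 (84.1%) were centred inside an H3K4me3 interval. Without peak heights, a gap between called intervals is not shown to lack H3K4me3.

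**Figure D2:**
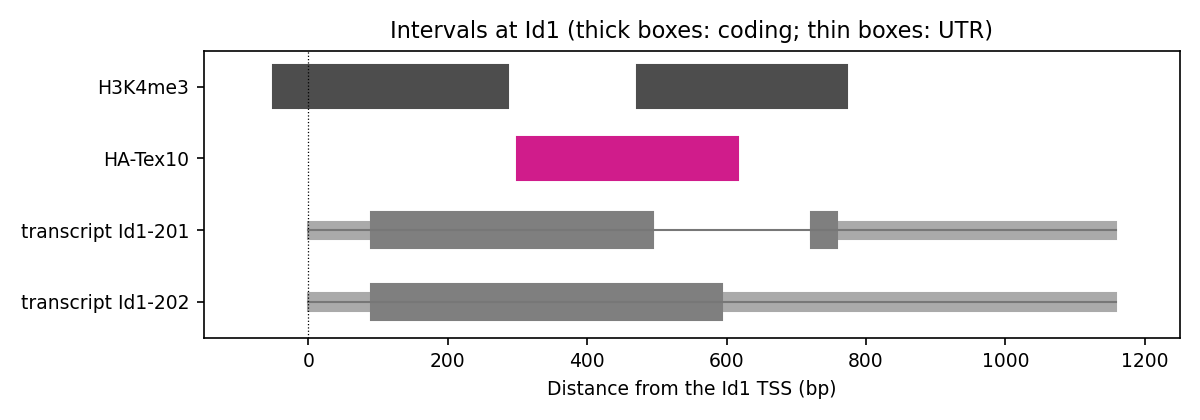
Id1 in bp from its TSS (x axis), with the H3K4me3 intervals, the HA-Tex10 interval and the 2 coding transcripts on separate lines (thick boxes coding, thin boxes UTR, line intron). HA-Tex10 starts at 300 bp, 14 bp beyond the end of the first H3K4me3 interval, and covers 172 of the 185 bp between them.

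The H3K4me3 intervals at Id1 covered few bases, which is a measure of width and not of the amount of the mark. Within 5 kb of the TSS, 638 bp were covered by H3K4me3, at percentile 14.4 of the 13306 coding genes with H3K4me3 at a TSS, whose median was 1487 bp. The nearest TSS of another gene, that of Cox4i2, was 17306 bp from the HA-Tex10 interval. None of the 32-base words of the HA-Tex10 interval occurred elsewhere on the assembled chromosomes (0% repeated). The interval held 1 match to GTCTG, the SMAD4 box, which was present in 40.9% of the central 200 bp windows of the 4238 HA-Tex10 intervals on assembled chromosomes. It held no match to GGCGCC, the element bound by SMAD1 and SMAD5.

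Id2 (ENSMUSG00000020644.9), another inhibitor of the same family, is a minus-strand gene of chromosome 12, spanning 25093799 to 25097140. There were 5 H3K4me3 intervals and no HA-Tex10 interval in this gene plus 10 kb. Of these, 2 were in the gene, of 325 bp over coding sequence and of 625 bp, and neither contained any of its 3 coding TSS. They lay 154 and 28 bp from the nearest TSS. The other 3 lay upstream of the gene, with widths of 208, 97 and 1896 bp.

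The interval of 1896 bp upstream of Id2, from 25099223 to 25101118, was wider than either interval in the gene, and it began 2083 bp from the 5′-most TSS. No TSS of another coding gene or long non-coding RNA gene lay within 20 kb of it. With the upstream intervals counted, 3151 bp were covered within 5 kb of the Id2 TSS (percentile 90.3), and 30.1% of these bases were downstream. The median share downstream was 73.9% over coding genes with H3K4me3. The nearest HA-Tex10 interval was 1325430 bp from an Id2 TSS, farther than for any of the other 9 genes.

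Id3 (ENSMUSG00000007872.3), on the plus strand of chromosome 4 from 136143497 to 136145755, encodes a further member of the family. Its H3K4me3 intervals were 493, 256 and 63 bp wide, and the first began 259 bp downstream of the TSS. All 812 bp covered within 5 kb were downstream of this GENCODE TSS (percentile 20.8 for the covered bases). The nearest HA-Tex10 interval, from 136163737 to 136163752, was 16 bp wide and 20240 bp from the TSS. HA-Tex10 was thus outside the 10 kb window at Id3.

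Msx2 (ENSMUSG00000021469.9) encodes a homeobox transcription factor and spans 53466884 to 53473074 of chromosome 13, minus strand. The H3K4me3 interval at its start was 745 bp wide and began 216 bp downstream of the TSS, over coding, UTR and intron bases. Another of 626 bp lay upstream, and 2 more of 437 and 562 bp lay past the end of the gene. Its HA-Tex10 interval, from 53462026 to 53462241, was 216 bp wide, lay 10833 bp from the TSS and was 4643 bp beyond the 3′ end. It overlapped the 562 bp H3K4me3 interval by 13 bp. It lay in single-copy sequence (0% of its words repeated), had 57.4% GC and held no match to any of the 8 motifs searched.

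The ligand gene Bmp4 (ENSMUSG00000021835.15) spans 46383520 to 46390669 of chromosome 14, minus strand. It had 4 H3K4me3 intervals. The one at the start, from 46390119 to 46390691, was 573 bp wide, contained both coding TSS and reached 22 bp upstream of the 5′-most one. A wider interval of 2173 bp began 1627 bp into the gene, mostly in introns, and contained the start of Gm15222, an antisense transcript. An interval of 624 bp over the later coding sequence and one of 533 bp past the gene, 466 bp from a TSS of Gm15217, completed the set. The mark covered 3203 bp within 5 kb of the TSS (percentile 90.8), of which 99.3% were downstream. No HA-Tex10 interval came closer than 907286 bp.

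The receptor genes carried single wide H3K4me3 intervals. Bmpr1a (ENSMUSG00000021796.15, chromosome 14, 34410734 to 34503341, minus strand) encodes a type I receptor, and its only H3K4me3 interval was 3145 bp wide, from 34500821 to 34503965. It contained 3 of its 4 coding TSS and the start of Gm17110, an antisense transcript. Bmpr2 (ENSMUSG00000067336.6, chromosome 1, 59763400 to 59879014, plus strand) encodes the type II receptor and had a single interval of 2995 bp, from 59762254 to 59765248. It reached 1146 bp upstream of the TSS, the longest upstream reach of an interval containing a TSS among the 10 genes. The widths stood at percentiles 94.9 and 93.5 of coding genes with H3K4me3. The nearest HA-Tex10 intervals were 277858 and 281400 bp away.

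The SMAD genes had intervals of intermediate width over their starts. Smad1 (ENSMUSG00000031681.16, chromosome 8, 79338395 to 79399518, minus strand) had 1 interval of 1809 bp, and Smad5 (ENSMUSG00000021540.16, chromosome 13, 56703010 to 56742377, plus strand) had 1 of 1605 bp. Both genes encode SMADs that the receptors phosphorylate. On chromosome 8, where Smad1 lies, 305 of the 741 coding genes with H3K4me3 had HA-Tex10 at a TSS (41.2%), next to 13.9% over all chromosomes. Smad1 had none, and the nearest HA-Tex10 interval was 189415 bp away.

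Smad4 (ENSMUSG00000024515.13, chromosome 18, 73639009 to 73703780, minus strand) encodes the partner shared by all receptor-regulated SMADs. It had 5 H3K4me3 intervals. One of 1795 bp contained the 5′-most TSS, and one of 528 bp lay just upstream, across a gap of 124 bp. The other 3, of 1242, 278 and 382 bp, were in an intron at 10255 to 16584 bp from that TSS. These 3 were mostly repeated sequence: 93.6%, 100% and 93.2% of their 32-base words had further copies in the reference, so words of this length do not place them uniquely. No other H3K4me3 interval of the 10 genes was mostly repeated, the next highest value being 12.6% at the 325 bp interval of Id2.

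Among the 10 genes, the width of the called H3K4me3 interval at the start divided by role. Such widths depend on the peak threshold and the treatment of the replicates, which are not known here. At the 5 receptor and SMAD genes, the widest H3K4me3 interval at a TSS was 1605 to 3145 bp (median 1809 bp). At the ligand and the 4 target genes it was 337 to 745 bp (median 573 bp), and the ranges did not overlap. Over the 13306 coding genes with H3K4me3 the median was 1342 bp, with quartiles of 861 and 1967 bp. The split by role was made after the values were seen and was given no test. Further genes of the same roles, chosen here after their values were seen, went the other way: the transducer Smad9 had 310 bp (percentile 3.23), the receptors Acvrl1 and Bmpr1b had 557 and 643 bp, and the targets Id4 and Hey1 had 1828 and 1613 bp. The lack of overlap thus did not extend to the wider pathway. Among further genes with H3K4me3 at a TSS, the median was 1660 bp at receptors and co-receptors, 1183 bp at ligands and 959 bp at targets. The median at receptors and co-receptors was thus above those at ligands and targets, as in the 10 genes, while Smad9, the only further transducer listed, lay below all 3 medians. No order of ligands and targets was seen in the 10 genes, whose only ligand, Bmp4, lay within the range of the targets. The division among the 10 genes also depends on measuring single intervals. As covered bases within 5 kb, the ranges were 1605 to 3145 bp and 638 to 3203 bp, with Bmp4 highest of all. With a 2.5 kb window the widest interval became 2173 bp at Bmp4 and 1896 bp at Id2, and the ranges overlapped. With neighbouring intervals within 1 kb merged they did not, Id2 being the widest of the targets at 1136 bp.

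**Figure D3:**
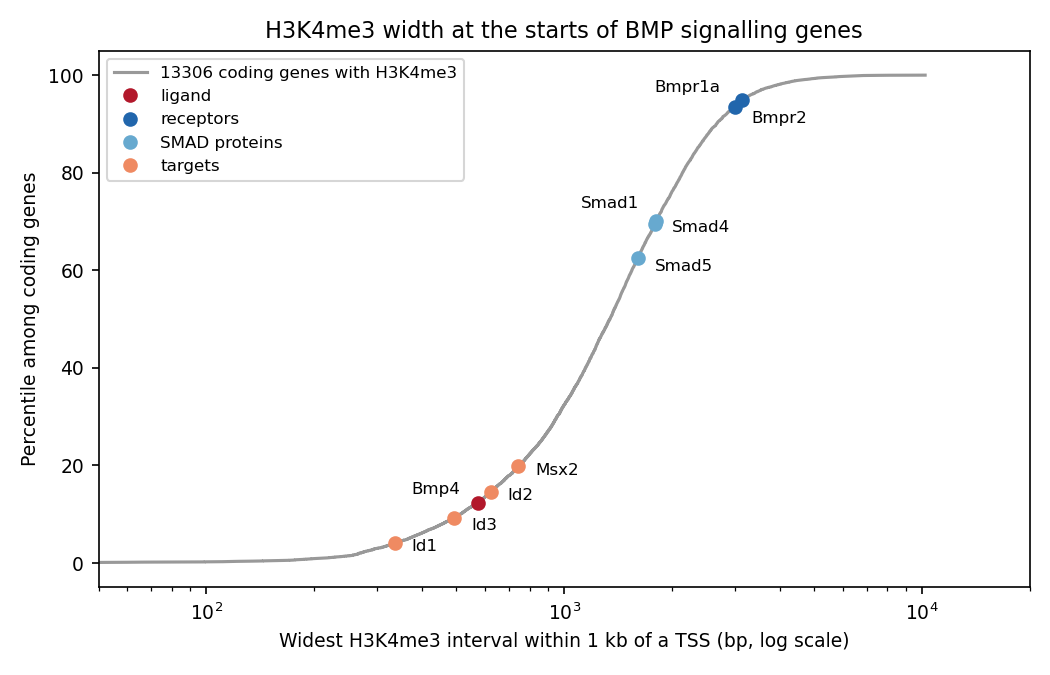
Width of the widest H3K4me3 interval within 1 kb of a TSS (x axis, bp, log scale) against its percentile among coding genes with H3K4me3 (y axis), for the 10 genes as points coloured by role and for all coding genes as a line. The target genes and Bmp4 sit at percentiles 4.14 to 19.8 and the receptor and SMAD genes at 62.5 to 94.9.

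The number of intervals differed as well. The ligand and targets had 18 H3K4me3 intervals in the gene plus 10 kb, from 2 to 5 per gene. The receptors and SMADs had 9, of which 5 were those of Smad4, and the other 4 genes had 1 each. Part of this contrast is the splitting of close neighbours, since gaps under 1 kb lay at Bmp4, Id1, Id2 and Id3, and in the other set at Smad4 alone. With neighbours within 1 kb merged, the 27 intervals of the 10 genes became 20. Without merging, 6 of the 10 genes had 2 or more intervals in the gene plus 10 kb, where 63.7% of coding genes with H3K4me3 did. Within 1 kb of a TSS, 3 genes (Smad4, Id1 and Id2) had 2 or more intervals, where 20.3% of such genes did. An interval contained a TSS at 7 of the 10 genes, the exceptions being Id2, Id3 and Msx2, where 85.9% of coding genes with H3K4me3 had one that did. This rests on the GENCODE starts. For the 8 genes with RefSeq starts, an interval contained a GENCODE TSS at 5 and a RefSeq start at 7, where the shares over the 10326 coding genes with H3K4me3 and a RefSeq start were 86.9% and 81.3%. The RefSeq starts of Id3 (136143822) and Msx2 (53472780) lay inside their intervals, with 66 and 78 bp of the interval upstream, and that of Id2 lay 28 bp outside.

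**Figure D4:**
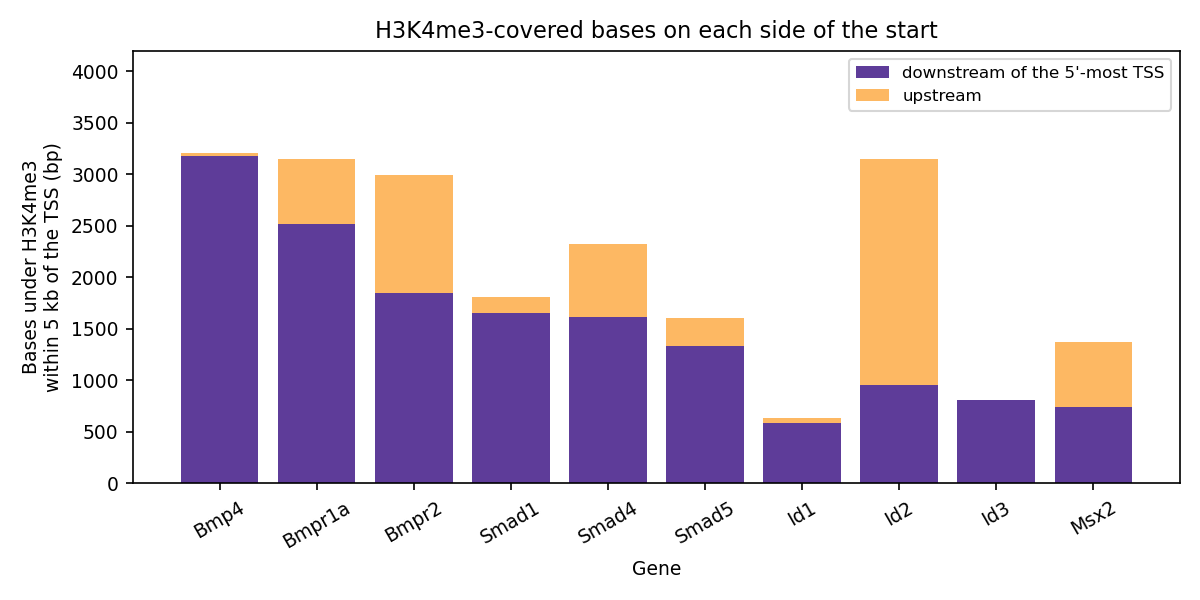
Bases covered by H3K4me3 within 5 kb of the 5'-most coding TSS (y axis, bp) for each gene (x axis), stacked as downstream and upstream bases. Id2 has 2201 of its 3151 bp upstream, and the other 9 genes have most of theirs downstream.

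The 2 sets of genes, split after the widths were seen, also differed in CpG content. Width differed with CpG content over all coding genes too, as given below, so this is not an independent second difference. The ratio of observed to expected CpG in the 1000 bp around the 5′-most TSS was 0.92 to 1.02 at the receptor and SMAD genes. At the ligand and targets it was 0.44 (Bmp4) to 0.68 (Msx2), again without overlap. The median over coding genes with H3K4me3 was 0.73, and over the 8547 without it 0.19. GC content ranged from 55.2 to 74.2% in the first group and from 47.4 to 56.7% in the second, where the ranges did overlap. These windows follow the GENCODE starts and do not reach the RefSeq starts of Id2, Bmpr1a and Bmpr2. The Id2 values, a ratio of 0.50 and 47.4% GC, are thus not those of its RefSeq promoter. Over all coding genes with H3K4me3, the 1887 with a ratio above 0.9 had a median widest interval of 1810 bp and the 5848 with a ratio below 0.7 had one of 1040 bp, bounds that were chosen after the values of the 10 genes were seen. The part of CpG content in the widths was not tested.

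**Figure D5:**
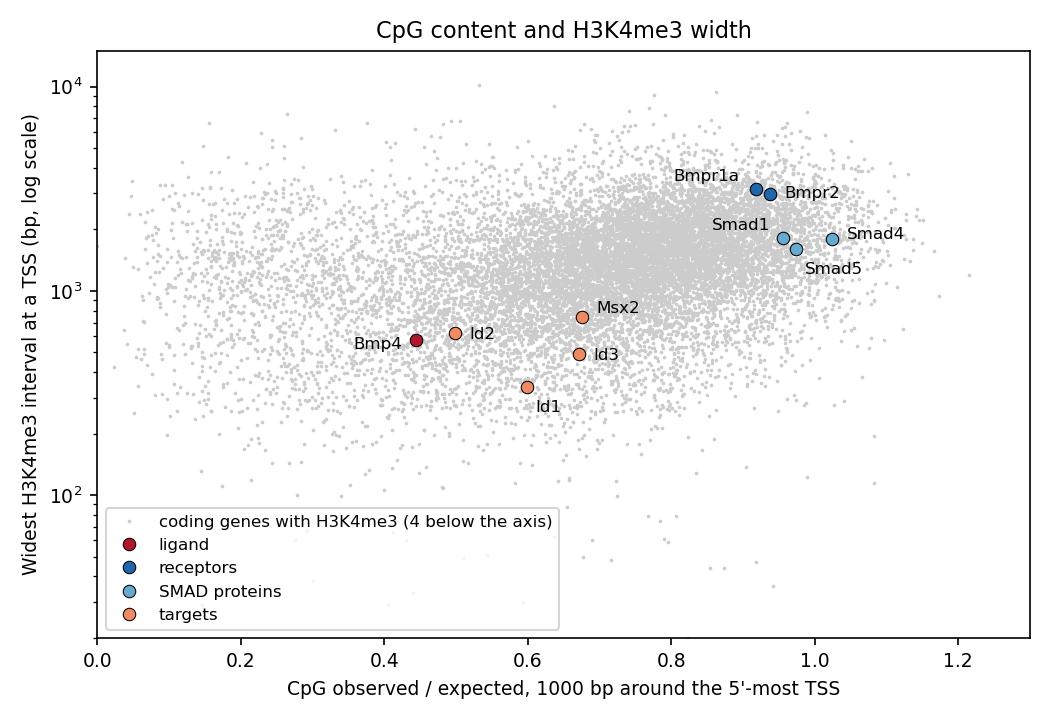
Ratio of observed to expected CpG around the 5'-most TSS (x axis) against the widest H3K4me3 interval at a TSS (y axis, bp, log scale). Grey points are coding genes with H3K4me3, and coloured points are the 10 genes by role. The receptor and SMAD genes lie at ratios of 0.92 to 1.02 and widths of at least 1605 bp, and the ligand and targets at 0.44 to 0.68 and at most 745 bp.

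The promoters of Bmp4 and Smad5 are shown for the contrast in the mark over the bases just before the start. Of the 250 bases upstream of the RefSeq start (GRCm38.p6), H3K4me3 covered 22 at Bmp4, those nearest the start at chr14:46390670-46390919 on the minus strand. At Smad5 it covered all 250, at chr13:56702760-56703009 on the plus strand. Capitals mark GGGCGG (the GC box) and CACGTG (the E-box) at Bmp4, and at Smad5 GGGCGG and the NFY box CCAAT, both on the opposite strand, where the first reads CCGCCC and the second, nearer the 5′ end of the stretch, reads ATTGG.
Bmp4 promoter: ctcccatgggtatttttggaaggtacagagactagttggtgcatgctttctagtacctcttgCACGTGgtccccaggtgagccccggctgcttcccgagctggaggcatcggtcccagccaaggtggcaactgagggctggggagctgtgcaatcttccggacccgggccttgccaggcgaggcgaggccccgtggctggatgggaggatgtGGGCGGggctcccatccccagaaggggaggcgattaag
Smad5 promoter: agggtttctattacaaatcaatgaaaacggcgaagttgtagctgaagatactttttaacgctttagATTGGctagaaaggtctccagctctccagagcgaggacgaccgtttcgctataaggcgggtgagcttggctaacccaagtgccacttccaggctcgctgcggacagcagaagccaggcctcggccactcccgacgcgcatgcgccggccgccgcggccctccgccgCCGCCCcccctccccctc

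RefSeq promoter windows, each 250 bp before to 50 bp after a start, were held for 8 of the 10 genes; Id1 and Smad4 were not among them. Motifs were searched on both strands. GGGCGG was found at all 8 genes, and in 35.7% of the 32851 promoter windows of all genes. GGCGCC was found at 4 (Bmpr1a, Bmpr2, Smad5 and Id2; 11.9% of all windows), CCAAT at 5 (37.4%), GTCTG at 2 (Smad5 and Id3; 49.6%) and CACGTG at 1 (Bmp4; 7.15%). The TATA box TATAAA, the SMAD palindrome GTCTAGAC and the BMP response element (GGCGCC, then any 5 bases, then GTCT) were not found in the windows of these 8 genes. Smad5 had 3 windows, which gave it more chances of a match, and these matches are descriptions of sequence only. The shares over all windows are not matched for base composition. All 8 genes had H3K4me3 at a TSS, and such coding genes had a median GC content of 59.3% there, where those without it had 46.2%. The shares among windows of genes with H3K4me3 were not read.

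Other genes of the pathway were read from a list of 43. H3K4me3 lay at a TSS of 37 of them (median of the widest interval 1244 bp) and HA-Tex10 at a TSS of 4, next to the same 60.9% and 8.66% of all coding genes. Of coding genes with H3K4me3 at a TSS, 13.9% had HA-Tex10 at one. Among 11 further ligands, 9 had H3K4me3. All 6 intracellular inhibitors had it, with a median width of 2762 bp. The widest were at Skil (7477 bp, percentile 99.95) and Smad7 (4900 bp), which restrain SMAD signalling, followed by Smad6 (2969 bp). Of 10 extracellular antagonists, 7 had H3K4me3 within 1 kb of a TSS. All 5 further targets had it, from 342 to 1828 bp (median 959 bp). Of the 9 further receptors and co-receptors 8 had it, from 557 to 2390 bp (median 1660 bp).

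HA-Tex10 lay at a TSS of the ligands Bmp7 and Gdf5, the co-receptor Rgma and the target Msx1. Msx1, a homeobox gene related to Msx2, was the one of these whose TSS lay inside the interval, which spanned 37824355 to 37824602 on chromosome 5 (248 bp) within H3K4me3. At Bmp7 (337 bp), Gdf5 (219 bp) and Rgma (155 bp) the intervals were 953, 970 and 973 bp from a TSS, close to the edge of the 1 kb window, and each was centred on H3K4me3. In the gene plus 10 kb, HA-Tex10 was also found at Bmp6, Acvrl1, Acvr2b, Smad6 and Nbl1. The one near Acvr2b contained a TSS of the neighbouring gene Exog. In total 9 of the 43 genes had HA-Tex10 in that window, next to 16.9% of all coding genes and 23.9% of those with H3K4me3 at a TSS.

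The layouts of the mark within 5 kb of the 5′-most TSS were compared with those of the 52 other genes of both lists by the Jaccard index, the shared covered bases over all covered bases, in this 1 list. Smad1 was most like Id4 (0.97), Smad5 most like Eng (0.88) and Smad4 most like Acvr2a (0.79). Each value is the highest of 52, and no values for genes outside the lists are given beside it, so how unusual it is cannot be told. For the other 7 genes the highest index ran from 0.36 to 0.78, and it was lowest at Id2 (0.36), Msx2 (0.45) and Bmp4 (0.50), whose layouts were not closely matched by any gene compared.

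The label of the cells was read against a list of marker genes. H3K4me3 lay at a TSS of 6 of 8 germ cell genes, among them Prdm1, Prdm14 and Tfap2c, and of all 5 pluripotency genes, next to 60.9% of coding genes. It was not found within 1 kb of a TSS of Dppa3 or Nanos3, genes that mark established germ cells. In the gene plus 10 kb, Dppa3 had 2 H3K4me3 intervals and Nanos3 had 7, so that all 8 germ cell genes had H3K4me3 there, next to 70.7% of coding genes. Nanos3 also had 3 HA-Tex10 intervals, the nearest 4034 bp from a TSS. HA-Tex10 lay in this window at 5 of the 28 marker genes, the others being Kit, Pou5f1, Nanog and Sox1. The shares were 16.9% of all coding genes and 23.9% of those with H3K4me3 at a TSS. All 4 mesoderm, 3 endoderm and 3 neural genes also had H3K4me3 at a TSS, whereas the 5 genes of blood, liver, pancreas and heart had none in the gene plus 10 kb.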

How the data were processed

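ChIP-seq intervals of HA-Tex10 and H3K4me3 in day 2 PGCLCs were used, with 1 deposited list for each antibody and 2 samples behind each. The submitters' processing notes name Bowtie2 2.3.4.3, SAMtools 1.9, MACS2 2.1.2, HOMER and mm10, without their roles. The peak threshold, the use of input and the treatment of the replicates are not given in the sources used here. The deposited lists hold starts and ends only, so the depth is unknown. A further deposited file was not used, since its 2990 distinct intervals were all in the HA-Tex10 list.

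Positions count from 1 on GRCm38, the assembly behind mm10, and 0 intervals passed a chromosome end. TSS were starts of protein-coding transcripts in GENCODE M21. An interval was at a TSS within 1 kb, and overlap meant at least 1 bp. Repeated sequence was read from 32-base words over whole intervals (over 50% occurring more than once; intervals under 100 bp widened to 100 bp). Percentiles are among the 13306 coding genes with H3K4me3 at a TSS, and CpG was read from 500 bp on each side of the TSS. Hjv is listed as Hfe2 in this annotation. The 10 genes and all lists were chosen with earlier results of these data known. All 10 genes are named, with the pathway genes that had an HA-Tex10 interval in the gene plus 10 kb, those with the widest intervals and the most alike layouts. Pathway genes without H3K4me3 are given as counts. No test was made, since each antibody has 1 list. The function that finds intervals near a TSS recovered planted intervals, and the merging of neighbours was checked on made-up intervals. The other measures were not checked in this way. Python 3.11.15, numpy and matplotlib were used.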

Additional observations from a re-analysis of the deposited data

How the results depend on the processing

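No paired analysis was possible because the lists carry no replicate values, and no replicate could be left out for that reason. Of 52 counts and medians under alternatives, 1 of them (RefSeq starts) chosen after seeing the data, 40 stayed within 1.5 times the value given and 12 did not. Some of the 40 were fixed in advance, since a wider window cannot lower a count of 10 out of 10 genes. Of 30 widths of single genes under alternatives, 20 stayed within this factor and 10 did not. With intervals wider than the median of their list, H3K4me3 at a TSS fell to 6 of the 10 genes, near the 49.8% of coding genes, and its intervals in the gene plus 10 kb to 9. The same setting left 1 gene (9.19% of coding genes) and 1 interval for HA-Tex10 in that window and 2 of the 43 pathway genes at a TSS (4.61%). In the gene body alone, HA-Tex10 was found at 1 gene (9.43% of coding genes), with 1 interval. With 50 kb on each side there were 42 H3K4me3 and 4 HA-Tex10 intervals. Requiring an interval to contain a TSS left 0 genes with HA-Tex10, where 3.85% of coding genes had it. The median H3K4me3 width over the 10 genes, 1175 bp, became 1802 bp with a 2.5 kb window and 2066 bp as bases covered within 5 kb, where the medians over coding genes were 1342, 1356 and 1487 bp. The order of the medians was thus turned by both settings. H3K4me3 remained at all 10 genes with a 500 bp window (60.3% of coding genes) and with the 5′-most TSS only (58.1%). Windows wider than 1 kb could not lower this count. Without a known depth, a gene with no HA-Tex10 interval was not detected as bound and is not shown to lack Tex10.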
